A study of Mus musculus with 6 samples.

Results

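The cells described here were chosen by a gate for regulatory T cells of an effector, tissue-type kind. They come from single-cell RNA sequencing of CD4+ T cells in a mouse model of abdominal aortic aneurysm. A cell passed when at least 300 genes were detected in it. At most 10% of its unique molecular identifiers (UMIs, the tags that count captured RNA molecules) could come from mitochondrial genes. It also had to hold at least 1 UMI of Cd3e, at least 1 of Foxp3, none of Cxcr5, and at least 1 of Klrg1, Areg or Il1rl1. This gate took 1694 of 41315 barcodes, and 3836 cells in all carried both Cd3e and Foxp3. The remaining 2142 Foxp3+ cells, of which 257 held a Cxcr5 UMI and 1885 did not, served as the comparison within the same libraries. Since the gate was set on measured values, its own 6 genes are described without tests. The name effector, tissue-type is that of the gate and need not hold for each cell. In spleen 51.2% of the gated cells were admitted by Areg alone, and their Ccr7 level was near that of the other Foxp3+ cells.

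All 6 libraries came from C57/B6 mice that were 8 to 12 weeks old when the aneurysm was induced with elastase (treatment label PPE), and spleen and aorta were taken 14 days after surgery. There were 3 spleen and 3 vascular libraries, each of sorted CD4+ T cells captured with a 10x Genomics 5′ kit, and both tissues thus came from operated animals; no untreated aorta was analysed here. Aortas were minced and digested with enzymes at 37 °C for 1 h, whereas spleens were ground with no digestion step, so the tissue of origin and the way the cells were freed cannot be told apart. The labels do not state whether the 3 libraries of a tissue came from separate animals or pools, and p-values measure only the spread between these libraries.

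Regulatory T cells restrain other immune cells and are defined by the transcription factor Foxp3. In lymphoid organs many of them are resting cells that recirculate, while a differentiated kind prevails in skin, fat, muscle and other tissues. That kind carries the inhibitory lectin receptor Klrg1 and the interleukin 33 receptor ST2 (gene Il1rl1). It makes amphiregulin (Areg), a growth factor known for its part in tissue repair. Gata3, Batf, Rora and Pparg are among the transcription factors linked to that differentiation, and Ikzf2 encodes Helios, a factor carried by most thymus-derived regulatory T cells.

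The 250 bases before the transcription start of 5 genes are given, because these genes either set the gate or stood out in the comparisons that follow. They are RefSeq sequences of build GRCm38.p6, written 5′ to 3′ on the gene's own strand, and capitals mark matches to motifs that were searched on both strands of every promoter window of that length. Areg lies on chromosome 5 and its window at chr5:91139349-91139598, plus strand, with a cAMP response element (TGACGTCA) in capitals; that motif was found in 1.55% of 32851 windows.

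Areg: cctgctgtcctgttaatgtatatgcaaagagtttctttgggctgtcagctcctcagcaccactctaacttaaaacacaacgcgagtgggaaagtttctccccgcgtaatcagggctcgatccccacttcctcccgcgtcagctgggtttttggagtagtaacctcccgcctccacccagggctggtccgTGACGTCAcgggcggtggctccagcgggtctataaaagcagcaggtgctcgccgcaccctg

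The upstream of 2 starts of Il1rl1 (chr1:40429320-40429569, plus strand) and the start of Ccr8 (chr9:120091883-120092132, plus strand) each held a GATA motif (AGATAAG, on the minus strand in Ccr8), which 2.74% of windows hold; the second start of Il1rl1 held none of the motifs.

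Il1rl1: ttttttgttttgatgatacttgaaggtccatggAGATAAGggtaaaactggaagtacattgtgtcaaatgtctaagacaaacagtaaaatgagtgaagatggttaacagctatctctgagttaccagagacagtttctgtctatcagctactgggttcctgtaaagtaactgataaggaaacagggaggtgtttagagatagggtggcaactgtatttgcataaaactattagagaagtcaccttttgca

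Ccr8: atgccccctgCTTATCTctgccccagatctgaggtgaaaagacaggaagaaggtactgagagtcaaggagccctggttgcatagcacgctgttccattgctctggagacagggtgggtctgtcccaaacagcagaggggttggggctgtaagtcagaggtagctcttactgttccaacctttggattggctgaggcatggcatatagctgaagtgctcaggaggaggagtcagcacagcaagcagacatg

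Cxcl2 (chr5:90903649-90903898, plus strand) held an NF-kB motif (in 0.356% of windows), and Hspa1a (chr17:34972157-34972406, minus strand) a heat shock motif (GAANNTTC, in 6.69% of windows). An AP-1 motif (TGANTCA, in 6.75% of windows) was found in none of the 5 windows printed here. The window of Dtx1, which showed a large fall in the comparison of tissues, held none of the motifs and is not printed. For Klrg1 and Tff1 no promoter entry was available. A match is a stretch of letters and was not tested as a binding site.

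Cxcl2: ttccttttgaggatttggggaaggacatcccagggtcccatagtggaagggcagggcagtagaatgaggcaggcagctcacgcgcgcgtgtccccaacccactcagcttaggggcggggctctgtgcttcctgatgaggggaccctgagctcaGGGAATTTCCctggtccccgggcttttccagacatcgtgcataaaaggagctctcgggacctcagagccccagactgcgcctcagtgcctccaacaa

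Hspa1a: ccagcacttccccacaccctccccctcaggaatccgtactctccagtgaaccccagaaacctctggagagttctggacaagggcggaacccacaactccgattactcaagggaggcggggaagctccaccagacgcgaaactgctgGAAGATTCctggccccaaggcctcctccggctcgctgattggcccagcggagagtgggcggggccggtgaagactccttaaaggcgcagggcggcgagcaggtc

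The gated cells numbered 53, 192 and 187 in the spleen libraries and 514, 327 and 421 in the vascular libraries. Their median depth was 5006 to 5076 UMIs a cell in spleen and 6062 to 6626 in vascular tissue, and that of the other Foxp3+ cells 5022 to 6630 and 5529 to 6324. Of 932 barcodes that occurred in more than 1 library, 1 was shared by gated cells of 2 libraries. RNA of other cell types was present in the gated cells. At least 1 UMI of 9 genes that define B cells, macrophages, plasma cells or plasmacytoid dendritic cells was found in 20.8% to 27.6% of them in spleen and in 22.0% to 28.1% in vascular libraries. Wider marker lists covered B cells, plasma cells, macrophages, dendritic cells and neutrophils. At least 2 UMIs over these lists were found in 26.4% to 31.25% of the gated cells in spleen and in 50.8% to 54.4% in vascular libraries. The summed level of 8 dendritic cell markers was 48.2 to 108 plain CPM (UMIs scaled to the total of the same cells, on the counts-per-million scale) in spleen and 450 to 632 in vascular gated cells. That of 5 B cell markers was 30.4 to 54.1 and 120 to 181, and that of 4 plasma cell markers 45.7 to 109 and 152 to 747. Summed macrophage markers (8 genes) stood at 58.3 to 134 and 103 to 161, and 4 markers of natural killer or innate lymphoid cells at 30.4 to 72.9 and 380 to 451. The sum of 2 CD8 markers was 12.3 to 33.0 and 79.5 to 109, and all 4 mast cell or basophil markers (Cpa3, Mcpt4, Mcpt8 and Fcer1a) were at 0. Smooth muscle, fibroblast and neutrophil markers did not exceed 3.28 plain CPM in any library, with Myh11 at 0. Endothelial markers stood at 22.7 to 45.7 and 21.7 to 30.8 with Cldn5 at 0, and erythroid markers at 5.07 to 46.2 and 0 to 0.819. The part of this RNA in the differences below was not tested; counts of each list without such cells follow the lists. Of these lists, several genes (Xbp1, Runx2, Itgax) can be expressed by T cells as well.

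Values near the edges of the gate are given as a description. Of the gated cells, 461 held exactly 1 Foxp3 UMI and 1233 held 2 or more, while 2578 cells met every other condition with no Foxp3 UMI. Over Klrg1, Areg and Il1rl1 together, 295 held a single UMI and 1399 more than that, against 1885 cells that met the other conditions with none. There were 47 cells with 1 Cxcr5 UMI and 19 with 2 or more that met every other condition, and 18 cells that lacked only Cd3e. No cell failed the quality filter alone, and among the gated cells the lowest gene number was 829 and the highest mitochondrial share 6.05%.

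How the cells entered the gate differed between the tissues. In spleen 51.2% of the gated cells were admitted by Areg alone, against 27.8% in vascular tissue, and 21.5% and 12.2% by Klrg1 alone. All 3 genes were seen together in 3.47% of spleen and 23.1% of vascular gated cells, and Klrg1 with Areg but no Il1rl1 in 16.7% and 27.3%. Il1rl1 was detected in 10.6% and 32.7%, Klrg1 in 44.9% and 66.6%, and Areg in 72.2% and 82.7%. Summed over the gated cells of each library, Areg stood at 384, 324 and 328 CPM (on edgeR TMM-scaled totals, as every level below not called plain) in spleen libraries 1 to 3 and at 1391, 1151 and 1220 in vascular libraries 1 to 3. Il1rl1 stood at 6.89, 21.0 and 17.5 CPM against 104, 86.9 and 71.6, and Klrg1 at 388, 317 and 360 against 495, 437 and 389. Foxp3 was at 374, 485 and 466 CPM in spleen and 369, 400 and 392 in vascular gated cells, so the tissues overlapped for Foxp3 while all 3 entry genes were higher in every vascular than in every spleen library.

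Detection of the entry genes was also set beside cells outside the Foxp3+ set, with every cell thinned to 2000 UMIs. Whether a UMI in such a cell was its own RNA was not tested. Il1rl1 was detected in 0.640% (spleen) and 12.7% (vascular) of Foxp3+ cells and in 0.0661% and 0.684% of Cd3e+ cells with no Foxp3 UMI. It was found in none of 154 and 1134 cells with 2 or more Siglech UMIs and no Cd3e UMI (plasmacytoid dendritic type), which allows shares of up to 1.95% and 0.265%. Klrg1 was seen in 6.80% and 32.6% of Foxp3+ cells, 0.441% and 1.31% of Foxp3-negative T cells, and 0 of 154 and 0.0882% of the dendritic type. For Areg the shares were 10.1% and 45.3% in Foxp3+ cells, 1.06% and 7.84% in Foxp3-negative T cells, and 1.95% and 5.47% in the dendritic type. B cells (a Cd79a and a Ms4a1 UMI, no Cd3e UMI) numbered 179 in spleen and 52 in vascular libraries. Klrg1 and Il1rl1 were found in none of them, and Areg in 0 and 1. Median depth before thinning was 5180 and 6266 UMIs in Foxp3+ cells, 5212 and 4544 in Foxp3-negative T cells and 7421 and 8209 in the dendritic type. The Areg condition therefore carried the highest share in cells outside the Foxp3+ set, and the main counts were repeated with a gate that did not use it.

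Ikzf2, a gene outside the rule, is given as a description of the gated cells. Genes that go with Klrg1, Areg or Il1rl1 within a cell are favoured by construction when gated and other Foxp3+ cells are compared. Its level by entry gene is given further on. Helios RNA was at 505, 452 and 442 CPM in spleen and 428, 459 and 416 CPM in vascular gated cells, against 321, 283 and 293 and 264, 208 and 257 CPM in other Foxp3+ cells, with no overlap between the sets. The difference between sets was 0.75 ± 0.07 on the log2 scale (± SE; edgeR's quasi-likelihood test with library as a block, adjusted p = 5.4e-06; higher in 6 of 6 libraries). At 2000 UMIs a cell Ikzf2 was detected in 60.3 ± 3.19% of spleen and 57.0 ± 1.73% of vascular gated cells (SD, n = 3 each) against 39.5 ± 3.6% and 33.8 ± 2.17% of the others. Gata3, which drives Il1rl1 in other lymphocytes, was at 227, 171 and 183 CPM in spleen and 271, 216 and 192 CPM in vascular gated cells and at 84.0 to 106 CPM in all other Foxp3+ sums. This is a log2 difference of 1.09 ± 0.09 (edgeR adjusted p = 1.8e-06). For both genes the tissue difference within the gated cells was small and did not pass the test (log2 vascular minus spleen -0.13 ± 0.11 for Ikzf2, adjusted p = 0.47, and 0.23 ± 0.15 for Gata3, adjusted p = 0.34).

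Among Foxp3+ T cells the gated kind was the minority in spleen and, with Areg in the gate, the majority in vascular tissue. With cells thinned to 2000 UMIs it made up 23.6%, 16.8% and 13.5% in spleen libraries 1 to 3 and 67.1%, 58.2% and 58.4% in vascular libraries 1 to 3. All vascular libraries lay above all spleen libraries, with means of 18.0 ± 5.16% and 61.3 ± 5.08% (SD, n = 3 each) and a difference of 43.3 percentage points. Since the gate chose these cells by measured values, the share is a description with no test. Without thinning the shares were 22.1 ± 2.22% and 69.9 ± 5.74%. With a gate that did not use Areg, and cells thinned to 2000 UMIs, they were 9.45 ± 2.06% and 41.3 ± 4.62%. Under that gate the cells were a minority in both tissues. Measured over all Cd3e+ cells, the thinned shares were 1.15 ± 0.324% and 3.89 ± 0.268%.

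**Figure D1:**
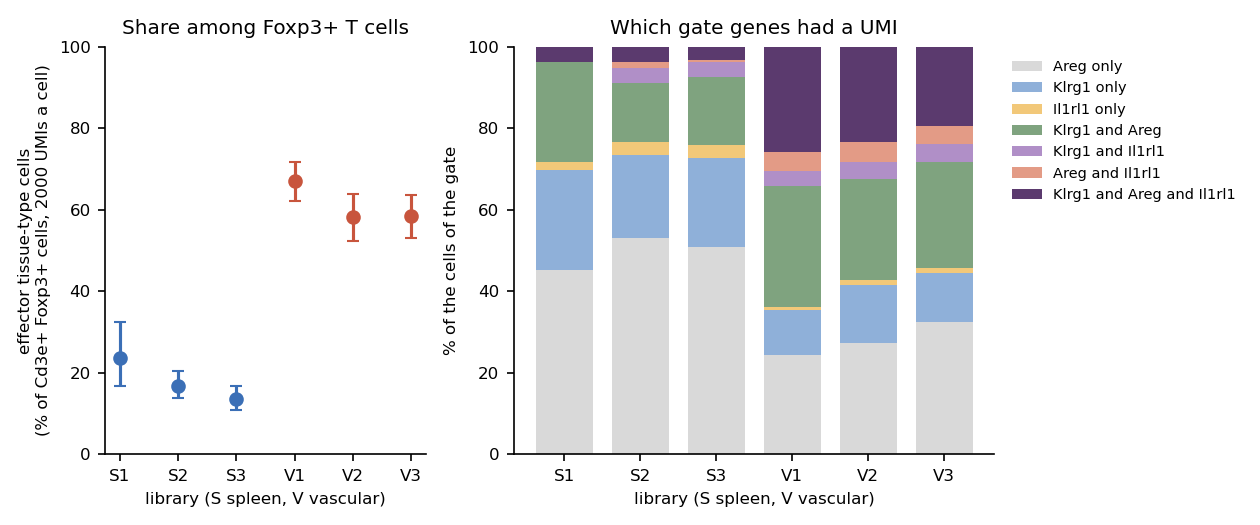
Left, share of effector tissue-type cells among Cd3e+ Foxp3+ cells (%) in each library after thinning to 2000 UMIs a cell, with 95% Wilson intervals that cover counting error only; right, the percentage of the gated cells of each library by which of Klrg1, Areg and Il1rl1 had a UMI. The 3 vascular libraries (58.2% to 67.1%) lie above the 3 spleen libraries (13.5% to 23.6%), and the segment with all 3 genes is larger in the vascular libraries.

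The next question was how the gated cells of the aneurysm wall differed from those of the spleen. The tissues differed in how cells entered the gate, with 51.2% of spleen and 27.8% of vascular gated cells admitted by Areg alone. The part of this entry mix in the differences below was not tested. UMIs were summed over the gated cells of each library and tested with edgeR's quasi-likelihood test. After its filter on low counts 8919 genes were tested, and 954 were higher and 489 lower in vascular tissue at an adjusted p under 0.05, together 16.2% of those tested (10.7% higher, 5.48% lower). For 32.5% of the genes tested the tissues did not overlap. In bulk sums of this kind, fewer cells of a type and less RNA per cell cannot be told apart. In the other Foxp3+ cells of the same libraries 596 genes were higher and 292 lower, 10.7% of 8334 tested (7.15% and 3.5%). Both sets called 552 genes, all of them in the same direction: 38.3% of the calls in the gated cells and 62.2% of those in the others. A call in one set alone does not show that the sets differ, and the test of that difference is given further on.

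Secreted repair and wound-response factors were among the genes with the largest rise in vascular tissue. Of 11 list members outside the gate 9 were tested, of which 8 rose and 1 fell. Of these, 4 (Tff1, Il1rn, Metrnl and Hbegf) would not have passed the filter on low counts in the spleen libraries alone, so the filter favoured their direction; of the other 5, 4 rose and 1 fell. Tff1, a trefoil peptide known from mucosal protection (chr17:31161395-31165277, minus strand, GENCODE vM21), had no UMI in the 432 spleen gated cells and 1309 UMIs in the 1262 vascular ones, at 98.3, 177 and 115 CPM in vascular libraries 1 to 3. Against a floor of 3 UMIs over the spleen group this is at least 121-fold higher (edgeR adjusted p = 2.1e-06). Tff1 was detected in 21.6% of vascular gated cells without thinning and in none of the spleen ones. The other Foxp3+ cells also showed it, at 47.2, 217 and 76.1 CPM in vascular libraries and at most 0.746 CPM in spleen. At 2000 UMIs a cell it was seen in 0.472% of vascular Foxp3-negative T cells and in none of the dendritic type, against 11% of vascular Foxp3+ cells. Il1r2, the decoy receptor for interleukin 1, rose from 9.19, 49.0 and 61.4 CPM to 205, 214 and 162 (log2 2.04 ± 0.26, edgeR adjusted p = 0.00011). Furin, a protease that matures growth factors, rose from 7.18 to 16.1 CPM to 47.0 to 54.4 CPM. Csf1 had the opposite direction, at 18.4, 31.1 and 21.5 CPM in spleen and 16.3, 8.98 and 10.2 CPM in vascular tissue, and its call was lost under 7 of 14 alternatives.

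Transcription factors of effector regulatory T cells mostly rose: 13 of 21 tested passed upward and 1 downward. Of these, 5, Pparg among them, passed the filter on low counts only through the vascular libraries, and of the other 16, 9 rose and 1 fell. Fosl2, an AP-1 family member, was at 18.4, 12.4 and 5.58 CPM in spleen and 198, 144 and 144 in vascular gated cells (log2 3.91 ± 0.26, edgeR adjusted p = 4.5e-07), with no overlap. Rora stood at 101, 121 and 90.1 CPM against 476, 356 and 372 (1.91 ± 0.15, edgeR adjusted p = 1.3e-06). Bhlhe40 stood at 193, 167 and 148 against 598, 439 and 420, and Rel, an NF-kB subunit needed for regulatory T cell development, at 101, 89.5 and 91.7 against 386, 285 and 246. Id2 rose by 1.47 ± 0.19. Pparg, the regulator of adipose tissue regulatory T cells, had 1 UMI in spleen and 92 in vascular gated cells, a ratio of 25.5 relative to all UMIs with a 95% counting interval of 4.46 to 1017. Batf and Gata3 did not pass the test.

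Chemokine receptors rose in 10 of 15 tested and fell in none, and 2 of those that rose, Ccr1 and Ccr9, passed the filter only through the vascular libraries. Ccr8, a receptor known to mark activated regulatory T cells in tissues, was at 50.5, 144 and 138 CPM in spleen and 432, 376 and 295 in vascular gated cells (1.59 ± 0.23, edgeR adjusted p = 0.00027). Cxcr6, which holds T cells at sites that make its ligand Cxcl16, was at 20.7, 22.6 and 18.3 against 208, 191 and 177 CPM (3.20 ± 0.15, edgeR adjusted p = 3.4e-08). Ccr1 had 1 UMI in spleen and 266 in vascular cells, a ratio of 73.7 with a counting interval of 13.1 to 2921. Ccr9 was called as well, at 0 to 3.99 CPM in spleen against 38.8 to 73.2 CPM, but it is also a gene of plasmacytoid dendritic cells. Its level in vascular gated cells dropped from 39 to 71.8 plain CPM to 5.15 to 5.49 when cells with any UMI of the 9 defining genes of other cells were left out. For adhesion and residency genes 9 of 21 rose and 1 fell. Itgav, the integrin chain that activates latent TGF-beta, rose from 168, 148 and 108 to 453, 367 and 312 CPM, and Cd44 from 56.8 to 59.8 to 144 to 177 CPM. Itgae, the CD103 integrin chain, was at 66.6, 66.9 and 82.1 CPM in spleen and 66.3, 96.2 and 105 in vascular tissue, where the ranges overlapped (0.26 ± 0.18, edgeR adjusted p = 0.37).

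Genes of lymphoid homing and quiescence were the group that fell, 13 of 19 tested against 1 that rose, with a median log2 difference of -1.03 beside -0.01 over all genes tested. Dtx1, an E3 ligase linked to T cell anergy that is on none of the lists, showed the largest fall among the genes named by size. It went from 117, 109 and 104 CPM in spleen to 2.54, 12.6 and 14.8 CPM (log2 -3.51 ± 0.33, edgeR adjusted p = 9.3e-06). Vascular library 1 lay below the floor of the filter on low counts (4.94 plain CPM). Dtx1 thus passed that filter only through the spleen libraries, so the filter favoured its direction. Of the list itself, Nsg2 fell by 2.52 ± 0.26, Igfbp4 by 2.23 ± 0.29 and Ly6c1 by 1.89 ± 0.19. S1pr1, the receptor for exit from lymphoid organs, was at 85.0, 124 and 160 CPM in spleen and 36.1, 55.3 and 74.3 in vascular cells. Tcf7, a factor of resting and stem-like T cells, was at 57.4, 87.9 and 82.9 against 23.9, 35.9 and 36.1 CPM (-1.35 ± 0.19, edgeR adjusted p = 0.00023). Ccr7, the lymph node homing receptor, did not follow them: it was at 115, 163 and 138 CPM in spleen and 151, 133 and 153 CPM in vascular gated cells (0.01 ± 0.13, edgeR adjusted p = 0.98). Il7r, the list member that rose, went from 136, 293 and 210 to 362, 480 and 427 CPM.

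Suppressive mediators and checkpoint receptors rose in 9 of 13 tested and fell in none, but several of these calls depended on the cells and libraries used. Those of Cd274 (PD-L1) and Entpd1 (CD39) were each kept under 4 of 15 alternatives. Those of Cd274 and Lag3 were lost both without cells holding a UMI of the 9 defining genes and without cells holding 2 or more UMIs over the wider marker lists, and that of Tgfb1 without the latter. Lag3 turned to -0.33 on the log2 scale when cells were thinned before gating. Without either kind of cell 7 and 6 of the 13 rose. Pdcd1, encoding PD-1, was at 75.8, 80.1 and 67.8 CPM in spleen and 390, 322 and 324 CPM in vascular gated cells (2.19 ± 0.13, edgeR adjusted p = 1.9e-07). Havcr2 (TIM-3) rose from 10.9 to 13.8 to 39.5 to 43.1 CPM and Fgl2, a secreted suppressive protein, from 39.1, 55.2 and 34.3 to 172, 150 and 153 CPM. Il10 was at 39.1, 38.9 and 17.5 CPM in spleen and 22.1, 12.6 and 21.0 CPM in vascular cells, with no call (-0.70 ± 0.30, edgeR adjusted p = 0.13). Gzmb differed more between libraries than between tissues, at 540, 171 and 289 against 452, 204 and 273 CPM (edgeR adjusted p = 0.93), and its direction turned under 6 of 15 alternatives. Of the 17 identity genes tested 8 rose and 2 fell. Of these, 1 passed the filter on low counts only through the spleen libraries, and of the other 16, 8 rose and 1 fell. Il2ra, the high-affinity interleukin 2 receptor chain, rose from 126, 148 and 144 to 329, 290 and 262 CPM, and Izumo1r, folate receptor 4, fell from 531, 732 and 638 to 226, 241 and 302 CPM.

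Activation genes rose broadly. Of the immediate early and AP-1 genes 18 of 23 rose and none fell. Ier3, Atf3 and Klf4 passed the filter on low counts only through the vascular libraries, and of the other 20, 15 rose. Crem, a cAMP-responsive repressor that was among these, went from 29.9, 23.3 and 31.9 to 334, 254 and 279 CPM (3.34 ± 0.17, edgeR adjusted p = 3.6e-08). Nr4a1, a marker of antigen receptor signalling, went from 335, 296 and 369 to 1137, 809 and 843 CPM. TNF receptor family and NF-kB genes rose in 12 of 17 with none lower, and 1 of those that rose, Tnfrsf8, passed the filter only through the vascular libraries. Tnfrsf9 (4-1BB) went from 262, 321 and 415 to 817, 605 and 573 CPM, and the NF-kB feedback gene Nfkbid rose by 1.19 ± 0.15. Heat shock genes rose in 9 of 17. Of these, 2, Hspa1b and Hspb1, passed the filter only through the vascular libraries, and of the other 15 tested, 7 rose. Hspa1a was at 18.4, 7.78 and 9.57 CPM in spleen and 1063, 818 and 730 CPM in vascular cells (6.38 ± 0.23, edgeR adjusted p = 2.0e-09), and Hspa1b at 1.59 to 6.89 against 242 to 279 CPM. These 2 genes are near-identical copies on chromosome 17, so how reads were divided between them is uncertain. Hspa1a rose to a like level in the other Foxp3+ cells, at 1160, 869 and 1017 CPM in vascular libraries. Immediate early and heat shock genes are known to respond to enzymatic tissue digestion. The part of the digestion was not tested and cannot be told apart from that of the tissue.

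Among cytokines Il17a had 2 UMIs in spleen and 847 in vascular gated cells, at 54.4, 46.7 and 135 CPM in the vascular libraries, a ratio of 117 with a 95% counting interval of 32.4 to 970. Tnf rose from 9.19, 28.8 and 23.9 to 58.2, 47.4 and 61.4 CPM. Of 15 cytokine genes listed 6 were tested, of which 3 rose and 1, Ltb, fell; 2 of those that rose, Il17a and Il17f, passed the filter on low counts only through the vascular libraries. Of 6 chemokine genes 3 rose, including Cxcl2 from 131, 227 and 59.0 to 582, 349 and 431 CPM. Glycolysis and hypoxia genes rose in 10 of 16 by smaller amounts (list median 0.45), for example Aldoa from 345, 477 and 539 to 778, 682 and 693 CPM. Only 2 of these 10 calls, that of Aldoa among them, were kept under every alternative in which they were tested. Among those that rose, Hk2 passed the filter only through the vascular libraries. In the cytotoxic and natural killer receptor list 6 of 12 rose and 1, Serpina3g, fell. Klrd1, Klrk1 and Klrc1 passed the filter on low counts only through the vascular libraries, and of the other 9, 3 rose and 1 fell. Klrk1 (NKG2D) went from at most 2.39 to 16.0 to 17.2 CPM. Serpinb9, a granzyme B inhibitor, went from 11.5, 15.6 and 6.38 to 69.4, 42.0 and 32.0 CPM. Survival and death genes rose in 7 of 14 and fell in 1. Cdkn1a, the p21 cell cycle inhibitor, went from 18.4, 17.9 and 16.7 to 248, 156 and 162 CPM. Bcl2a1d rose from 55.1, 96.5 and 84.5 to 340, 314 and 296 CPM, and Bcl2 fell from 34.5, 77.8 and 49.4 to 28.2, 25.1 and 26.1 CPM.

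Other lists moved less evenly. Interleukin 1 family genes rose in 4 of 9 and fell in 3. Il18r1 went from 25.5 to 36.6 to 66.1 to 73.0 CPM while Myd88, the adaptor of that family, fell from 45.9, 54.5 and 59.0 to 32.0, 26.6 and 28.3 CPM. Type I interferon response genes rose in 3 of 16 and fell in 2, and 2 of those that rose, Irf7 and Bst2, are also abundant in plasmacytoid dendritic cells. The call of Irf7 was lost without cells holding a defining gene and without cells of the wider marker lists, whereas that of Bst2 was kept under all 15 alternatives. Of those that fell, Rtp4 lost its call under both exclusions, and Usp18 under the second. None of 17 proliferation genes passed the test in either direction. Without cells holding a defining gene 2 of 17 rose, and without cells of the wider marker lists none of 16 passed.

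Genes of plasmacytoid dendritic cells appeared in the list of the largest rises by rule: Siglech, Cox6a2, Pltp, Ly6d and Alox5ap. In the vascular gated cells they stood at 121 to 160, 48.4 to 77.0, 67.9 to 108, 103 to 158 and 70.1 to 82.0 plain CPM, against at most 15.6 in any spleen library. After cells with any UMI of the 9 defining genes (Siglech among them) were left out, Cox6a2 kept 1, Pltp 14, Ly6d 7 and Alox5ap 70 UMIs in the vascular gated cells, against 675, 934, 1323 and 801 before. Ctsh, which had 1124 UMIs, kept 293. Under the same exclusion Tff1 kept 932 of 1309 UMIs, Il17a 698 of 847, Hspa1a 6584 of 9173 and Dgat2, a triglyceride synthesis enzyme that rose from 6.22 to 12.0 CPM to 98 to 141 CPM, 938 of 1242. The tissue comparison then gave 714 genes higher and 377 lower of 7897 tested.

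The lists not yet given in this way were also counted without cells holding a UMI of the 9 defining genes, and without cells holding 2 or more UMIs over the wider marker lists. Over all genes the first exclusion gave 714 higher and 377 lower of 7897 tested, and the second 578 and 283 of 6905. Repair factors rose in 7 and 6 of 8 tested and fell in none, and effector transcription factors rose in 13 of 19 and 11 of 18. Chemokine receptors rose in 8 of 13 and 8 of 12, with the call of Gpr183 lost under both. Homing and quiescence genes fell in 14 and 12 of 18, and adhesion genes rose in 9 and 10 of 21. Immediate early and AP-1 genes rose in 15 of 22 under both, with the call of Fos lost. TNF receptor family and NF-kB genes rose in 11 of 17 and 11 of 16, and heat shock genes in 8 and 9 of 17, with the calls of Nfkb2 and Hspb1 lost under both. Cytokines rose in 3 of 5 under both, and chemokines in 5 of 6 and 2 of 5. Glycolysis genes rose in 12 and 8 of 16, cytotoxic genes in 8 of 12 and 7 of 10, survival genes in 7 of 14 and identity genes in 8 of 17 under both. Interleukin 1 family genes rose in 3 of 9 and fell in 1 under both, with the call of Irak2 lost.

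**Figure D2:**
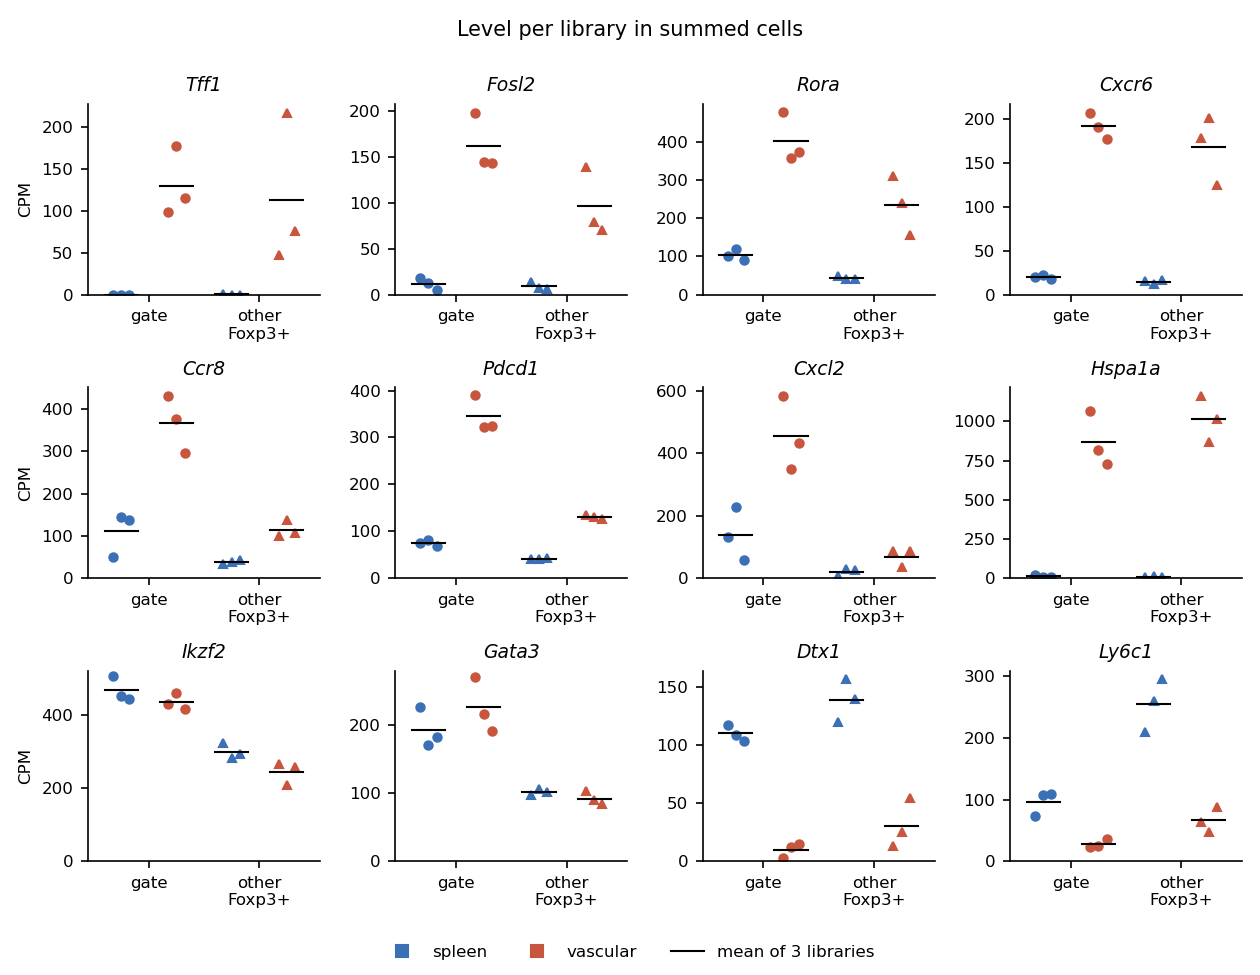
Level (CPM) of 12 genes in sums over the gated cells (circles) and over other Foxp3+ cells (triangles) of each library, spleen in blue and vascular in red, black bars the mean of 3 libraries. Tff1, Fosl2, Cxcr6 and Hspa1a are high in both vascular sets, Ccr8, Pdcd1 and Cxcl2 are highest in vascular gated cells, Ikzf2 and Gata3 separate the sets rather than the tissues, and the means of Dtx1 and Ly6c1 are lowest in vascular gated cells.

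The second comparison set the gated cells against the other Foxp3+ cells of the same library. With library as a block, 412 genes were higher and 276 lower in the gated cells, 7.42% of 9267 tested (4.45% higher, 2.98% lower), and 12.1% of genes had the same sign in all 6 libraries. The gate is part of this contrast, since it chose the gated cells, so genes that go with Klrg1, Areg or Il1rl1 within a cell are favoured by construction, and calls in it describe the gated cells. The median difference of all genes was -0.00 on the log2 scale.

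Cxcl2, Dgat2, Rln3, Mt1 and Ccr8 were among the genes most raised in the gated cells by the rule. Cxcl2, a neutrophil-attracting chemokine, was at 131, 227 and 59.0 CPM in spleen and 582, 349 and 431 in vascular gated cells, against 7.46 to 28.2 and 34.7 to 86.1 CPM in the other Foxp3+ cells (log2 2.63 ± 0.20, edgeR adjusted p = 1.8e-06). Dgat2 was at 6.22 to 12.0 and 98 to 141 CPM against 1.49 to 2.82 and 11.5 to 39 CPM (2.46 ± 0.20). Rln3, the peptide hormone relaxin 3, was at 110, 137 and 147 CPM in spleen and 217, 240 and 197 in vascular gated cells against 27.2 to 83.3 CPM in all sums of the others (1.67 ± 0.20, edgeR adjusted p = 8.3e-05). The metal-binding protein gene Mt1 differed by 2.05 ± 0.20. Ccr8 was at 33.6, 38.6 and 43.0 CPM in spleen and 99.8, 137 and 105 CPM in vascular other cells, below every gated sum of its tissue (1.65 ± 0.11, edgeR adjusted p = 7.1e-07). Also higher were Cd200r1 (1.42 ± 0.13), Ccrl2 (1.38 ± 0.11), Dusp14 (1.34 ± 0.16), Cd81 (1.29 ± 0.10), Cd83 (1.19 ± 0.13), Pdcd1 (1.19 ± 0.10) and Tnfrsf9 (1.13 ± 0.07), each in 6 of 6 libraries. Cd81 and Cd200r1 did not differ between the tissues within the gated cells by this test (adjusted p = 0.11 and 0.091).

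Among the lists, effector transcription factors were higher in 10 of 21 and lower in 2. Rora (0.99 ± 0.12), Id2 (1.03 ± 0.08), Bhlhe40 (0.84 ± 0.09), Batf (0.46 ± 0.07) and Rel (0.70 ± 0.11) were higher, and Id3, a factor of less differentiated cells, was lower (-0.83 ± 0.13). TNF receptor family and NF-kB genes were higher in 10 of 17 and lower in none. Tnfrsf4 (OX40) was at 662, 943 and 983 against 424, 448 and 512 CPM in the others in spleen, and at 1539, 1351 and 1199 against 871, 707 and 700 CPM in vascular tissue (0.88 ± 0.06, edgeR adjusted p = 5.9e-07). Of 17 identity genes 7 were higher and 3 lower, and of 14 suppressive mediators 5 were higher and 1 lower. Ebi3, a subunit of interleukin 35, was higher by 1.02 ± 0.10, Itgb8, which pairs with Itgav, by 1.20 ± 0.17, and Itgav itself by 1.12 ± 0.09, while Ctla4 and Il2ra did not pass (0.18 ± 0.06 and 0.02 ± 0.11). Adhesion genes were higher in 10 of 22 and lower in 1. Heat shock genes did not separate the sets: 1 of 17, Hspb1, was higher, the list median was close to 0, and Hspa1a differed by -0.21 ± 0.11. No cytotoxic, interleukin 1 family or proliferation gene passed, and Tff1 did not separate the sets either (0.34 ± 0.18, edgeR adjusted p = 0.34).

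Lymphoid homing and quiescence genes were lower in 17 of 20 and higher in 1, Il7r, whose call was lost under 4 of 15 alternatives. Ccr7, which was level between tissues, was at 115, 163 and 138 CPM and 151, 133 and 153 CPM in the gated cells against 307, 350 and 306 and 335, 373 and 240 CPM in the others (-1.13 ± 0.09, edgeR adjusted p = 1.8e-06). Tcf7 differed by -1.03 ± 0.11, at 57.4 to 87.9 and 23.9 to 36.1 CPM in the gated cells against 146 to 164 and 41.7 to 92.4 CPM. Other genes named as most reduced were Nsg2 (-1.49 ± 0.17), Ly6c1 (-1.33 ± 0.09), Actn1 (-1.13 ± 0.10), and Bcl2 (-1.09 ± 0.13). Smaller falls by this rule were those of Il6ra (-1.02 ± 0.11), Fam101b (-1.02 ± 0.17), Ifit3 (-0.90 ± 0.17), Cd9 (-0.88 ± 0.15), Sh3bp5 (-0.86 ± 0.15) and Tbc1d4 (-1.02 ± 0.21).

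**Figure D3:**
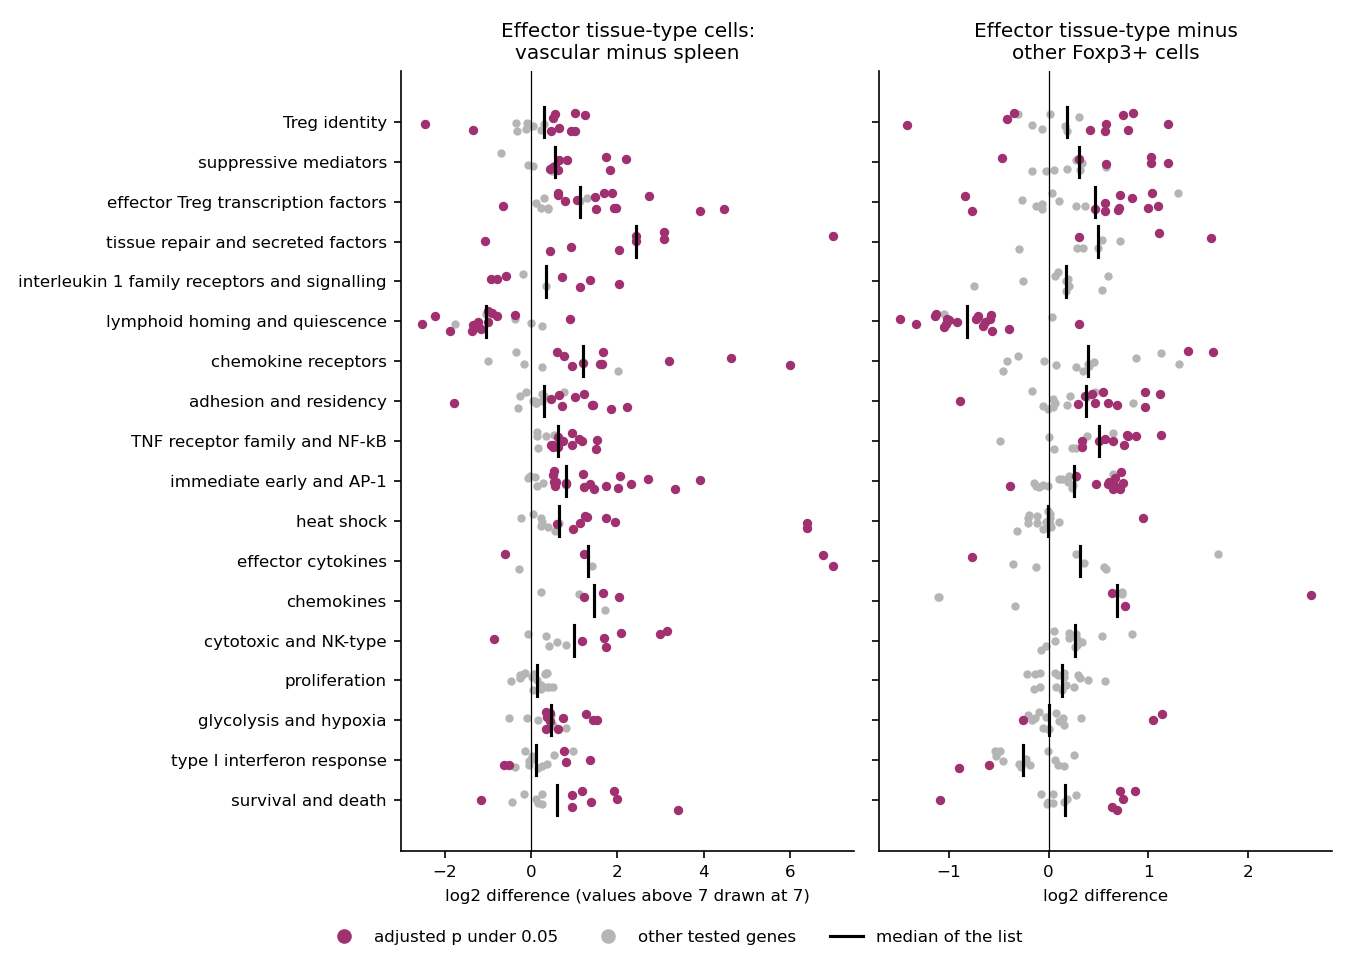
Log2 difference of each tested gene of 18 gene lists, for vascular minus spleen within the gated cells (left) and for gated minus other Foxp3+ cells (right); coloured points passed edgeR's test, grey points did not, and black bars are list medians (Tff1 and Il17f, fitted above 7 against spleen sums of 0, are drawn at 7). The median of the lymphoid homing list lies below 0 in both panels (-1.03 and -0.82), that of the TNF receptor and NF-kB list above 0 in both (0.62 and 0.50), and that of the heat shock list is 0.65 on the left and close to 0 on the right.

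Whether the spleen-to-vascular difference was the same size in both sets was tested as an interaction. It was larger (more positive) in the gated cells for 29 genes (0.313%) and smaller for 34 (0.367%), together 0.68% of 9267 tested. Of the 34 of these that the rule or the lists name, 8 kept their call when each library was left out in turn, and these are described here. The gate made the sets compared, and the share of gated cells and the mix of their entry genes differed between the tissues, as given above. The part of the gate in these calls was not tested.

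For 6 of the 8, the gated cells and the others stood apart in spleen and closer together in vascular tissue. Itgae was at 66.6, 66.9 and 82.1 CPM in spleen gated cells and 20.1, 28.9 and 33.2 in the other spleen cells, against 66.3, 96.2 and 105 and 77.1, 118 and 96.6 CPM in vascular tissue. Its gap of 1.37 ± 0.16 (log2) in spleen was -0.14 ± 0.11 in vascular tissue (interaction -1.49 ± 0.19, edgeR adjusted p = 0.00078), and the call held under all 15 alternatives. S100a4, a calcium-binding protein of effector and migrating cells, was at 641, 401 and 454 against 248, 192 and 199 CPM in spleen and 796, 870 and 816 against 756, 714 and 645 in vascular tissue (interaction -1.01 ± 0.11, edgeR adjusted p = 0.00055). S100a6 changed alike (-0.84 ± 0.10), and both held under all 15 alternatives. Tigit, an inhibitory receptor, was at 335, 422 and 394 against 150, 170 and 183 CPM in spleen and 491, 436 and 473 against 336, 295 and 340 CPM in vascular tissue (-0.72 ± 0.11). Its call was lost when the gate asked for 2 Foxp3 UMIs (adjusted p = 0.080). Maf, a factor linked to interleukin 10, had a gap of 0.58 ± 0.09 in spleen and -0.28 ± 0.09 in vascular tissue (-0.84 ± 0.12), and its call was lost when cells were thinned before gating (adjusted p = 0.16). Gzmb was at 540, 171 and 289 against 224, 123 and 121 CPM in spleen and 452, 204 and 273 against 616, 235 and 372 CPM in vascular tissue (-1.42 ± 0.17, edgeR adjusted p = 0.0006). For Gzmb the call was lost without cells that held a UMI of defining genes of other cells (-1.17, adjusted p = 0.14) and without cells holding 2 or more UMIs over the wider marker lists (-0.33, adjusted p = 0.84).

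The other two widened. Tbc1d4, a regulator of glucose transporter traffic, was at 55.1, 52.1 and 41.5 against 63.4, 69.7 and 56.8 CPM in spleen and 12.2, 14.7 and 13.2 against 39, 54.7 and 44.6 CPM in vascular tissue. The sets did not overlap in either tissue, and the gap went from -0.35 ± 0.15 in spleen to -1.80 ± 0.16 in vascular tissue (interaction -1.43 ± 0.21, edgeR adjusted p = 0.0045). This call was lost when cells were thinned before gating and when the gate did not use Areg. Junb, an AP-1 subunit, stood at 2667, 3079 and 2628 against 2991, 3058 and 3080 CPM in spleen and 4608, 3886 and 3837 against 3379, 2747 and 2496 CPM in vascular tissue (interaction 0.60 ± 0.09, edgeR adjusted p = 0.0042), and it held under all 15 alternatives.

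**Figure D4:**
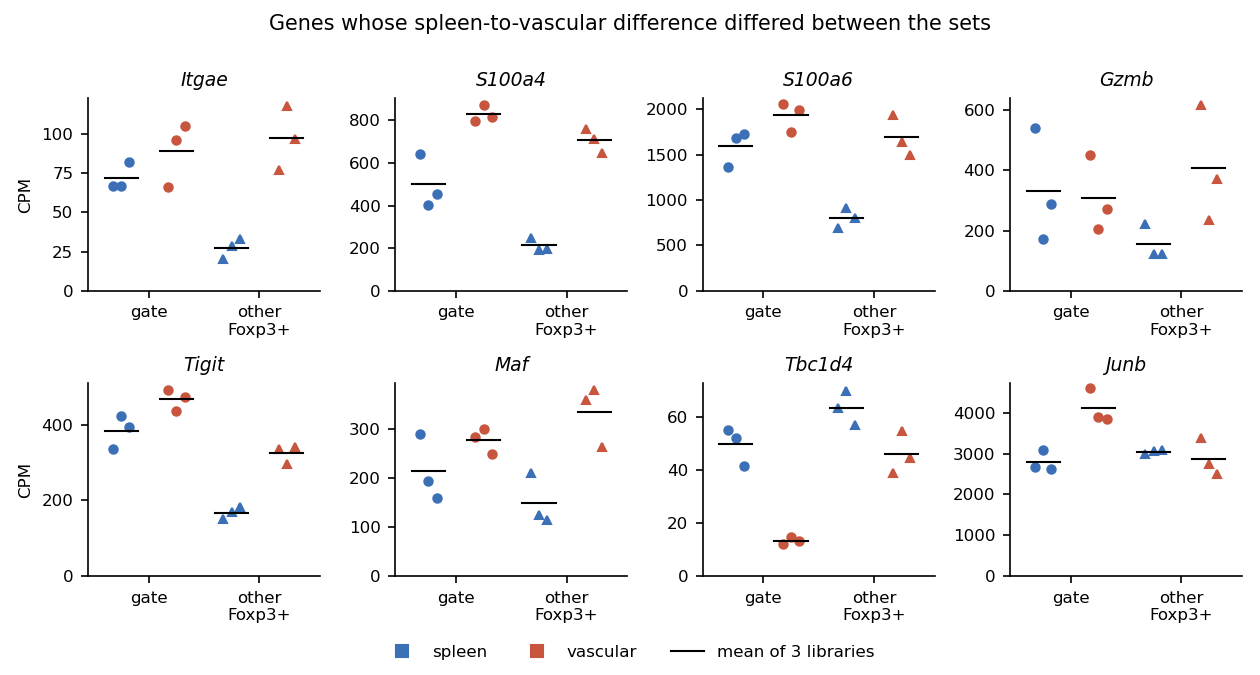
Level (CPM) of the 8 genes whose interaction call held when each library was left out, in gated (circles) and other Foxp3+ cells (triangles), spleen blue, vascular red, black bars the mean of 3 libraries. For Itgae the other Foxp3+ cells rise from 20.1 to 33.2 CPM in spleen to 77.1 to 118 CPM in vascular libraries while the gated cells stay between 66.3 and 105 CPM.

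Within the gate, levels varied with the genes by which a cell entered; these values are a description, as plain CPM within each class, with no test. Gata3 was highest in cells with Il1rl1, at 411, 337 and 303 in vascular libraries, and 143, 115 and 107 in cells admitted by Areg alone, against 104, 89.2 and 83.7 in the other Foxp3+ cells. Ikzf2 followed the same order in vascular tissue, at 505, 589 and 539 with Il1rl1, 289, 349 and 305 with Areg alone and 266, 207 and 256 in the others. Pdcd1 stood at 499, 493 and 473 with Il1rl1 and 299, 196 and 207 with Areg alone, and Ccr8 at 543, 591 and 408 against 319, 243 and 167. Cxcl2 was high where Klrg1 and Areg came together (642, 476 and 718 in vascular libraries) and where Il1rl1 was present (928, 551 and 655), and low with Areg alone (143, 138 and 118) or Klrg1 alone (221, 122 and 79.6).

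Among the gated classes Ccr7 was highest in cells admitted by Areg alone. Ccr7 was at 268, 225 and 260 in spleen and 292, 262 and 272 in vascular libraries in that class, near the 289 to 327 and 239 to 373 of the other Foxp3+ cells, and at most 137 in every other class of every library. Tcf7 was at 105, 116 and 117 in spleen cells with Areg alone and at 12.0, 58.8 and 35.7 with Klrg1 and Areg. Gzmb was lowest with Areg alone in spleen, at 13.1, 39 and 32.9, and high with Klrg1 alone, at 1565, 378 and 291 in spleen and 1219, 380 and 483 in vascular libraries, against 293, 153 and 140 with Areg alone in the latter. The spleen library 1 value with Klrg1 alone rests on 13 cells, and in spleen library 3 the class with Klrg1 and Areg stood higher still, at 1142. The class with Il1rl1 holds 3, 23 and 20 cells in spleen, and its spleen values are correspondingly coarse.

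**Figure D5:**
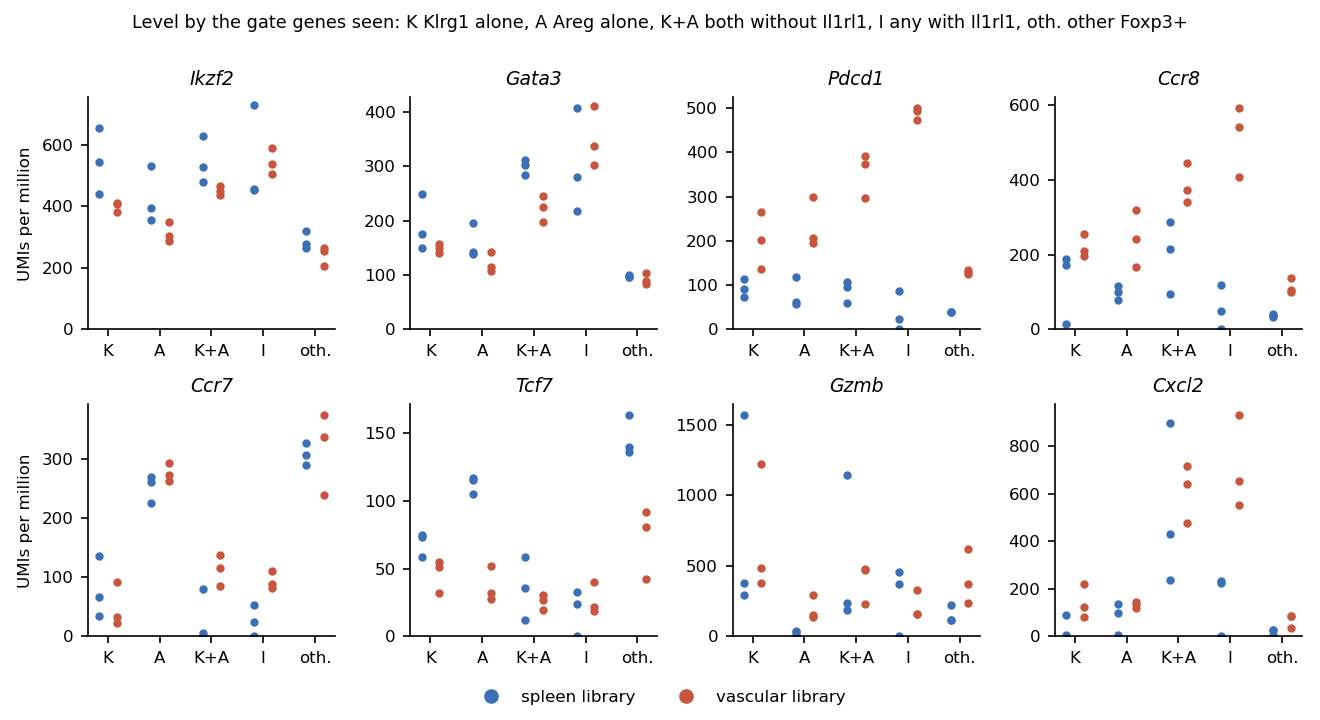
Level (plain CPM) of 8 genes by the gate genes seen (K Klrg1 alone, A Areg alone, K+A both without Il1rl1, I any with Il1rl1, oth. other Foxp3+ cells), 1 point per library, spleen blue and vascular red. In vascular libraries Gata3, Ikzf2, Pdcd1 and Ccr8 are highest in the Il1rl1 class, and Ccr7 in the Areg-alone class reaches the level of the other Foxp3+ cells.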

How the data were processed

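The authors deposited 6 matrices of UMI counts per gene and barcode for 27998 genes, aligned to mm10 with STAR 2.5.1b within Cell Ranger 2.2.0 after FastQC 0.11.8, per the submitters' processing notes; how barcodes were filtered is not stated there. Libraries held 2312 to 9581 barcodes with medians of 4423 to 5724 UMIs, and the gated cells 394235 to 4013130 UMIs a library. Groups followed the tissue labels. Counts were summed per library over gated and over other Foxp3+ cells, and tested with edgeR 4.0.16 (TMM, quasi-likelihood test, two-sided, Benjamini-Hochberg, threshold 0.05; limma 3.58.1, R 4.3.3), without the 6 gate genes; DESeq2 1.42.0 was an alternative. CPM are on TMM-scaled library sizes. Shares used cells thinned to 2000 UMIs, which left out 84 cells of spleen library 1 and 20 of vascular library 2. Scrublet in scanpy 1.11.5 scored each cell as a doublet. The highest-scoring 0.8% of cells for each 1000 barcodes of a library were labelled predicted doublets, so their number was set by library size. Among gated cells these were 0 to 75 a library. They were kept, and left out as an alternative. A permutation test of the share of gated cells had been planned and is not given, since the gate set that share. The fits were tested on simulated data. Intervals and floors cover counting error only. Genes named by size are the 12 with the largest log2 difference in each direction (6 for the interaction) past the threshold, with at least 30 CPM and no overlap of tissues or the same sign in 6 libraries; list members may be named too. The gated cells and the lists were chosen with earlier results of these data known. The alternative without cells holding a UMI of 9 defining genes of other cells (Siglech, Klk1, Cd79a, Cd79b, Ms4a1, C1qa, C1qb, C1qc and Jchain) was chosen after seeing the data. Promoter sequences are RefSeq's, on GRCm38.p6.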

Additional observations from a re-analysis of the deposited data

Results flagged for a closer look

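For 34 named or listed genes the tissue difference (vascular minus spleen) differed between the gated and the other Foxp3+ cells by edgeR's interaction test, 14 with a more positive and 20 with a more negative difference in the gated cells, given here as log2 values in brackets. Described above, and called without any 1 library, were Junb (0.60), Gzmb (-1.42), Itgae (-1.49), Maf (-0.84), S100a4 (-1.01), S100a6 (-0.84), Tbc1d4 (-1.43) and Tigit (-0.72). Called on all libraries but lost when at least 1 of them was left out were 26 genes. Among these, genes that plasma cells, B cells or plasmacytoid dendritic cells also express were Jchain (6.80), Ly6d (3.49), H2-Ab1 (2.98), H2-Aa (2.77), H2-Eb1 (2.52), Fcer1g (2.24), Bst2 (0.88) and Irf7 (0.84). In the vascular gated cells H2-Aa had 3500 UMIs, of which 394 were in cells with no UMI of the 9 defining genes of other cells, and Jchain, itself one of these genes, had 2414.

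The other genes with a more positive difference were Lrrc32 (1.04), Rel (0.69), Jun (0.66), Il2ra (0.64) and Jund (0.56); Lrrc32 encodes GARP, which holds latent TGF-beta on regulatory T cells. Those with a more negative difference were Capg (-0.69), Ccr4 (-1.20), Ccr6 (-1.56), Fgl2 (-1.35), Havcr2 (-2.09), Icos (-0.58), Il10 (-1.67), Lgals1 (-0.60), Lilrb4a (-1.47), Nsg2 (-1.09), Serpina3g (-1.13), Ube2c (-1.26) and Vim (-0.53). The calls lost numbered 21 without spleen library 1, 17 without spleen library 2, 18 without spleen library 3, 5 without vascular library 1, 19 without vascular library 2 and 11 without vascular library 3, and 27 when the gate asked for 2 or more Foxp3 UMIs.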

How the results depend on the processing

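The share difference of 43.3 percentage points stayed between 31.8 (gate without Areg) and 47.8 (no thinning), and between 40.3 and 46.1 with 1 library left out. Of the named or listed genes called on all libraries, 94 of 164 for the tissue difference within the gated cells, 72 of 106 against the other Foxp3+ cells and 4 of 34 for the interaction kept their call under every alternative in which they were tested, of 15. For the tissue difference within the gated cells (954 higher, 489 lower), thinning before gating gave 247 and 100 with 3337 genes tested, leaving out cells with 2 or more UMIs of other lineages 578 and 283, DESeq2 280 lower, the gate without Areg 299 lower, and leaving out 1 library 666 to 1099 higher and 235 to 689 lower. Against the other Foxp3+ cells (412 higher, 276 lower), thinning gave 229 higher, DESeq2 182 lower, the gate with 2 Foxp3 UMIs 137 lower, and leaving out 1 library 279 to 375 and 188 to 245. The interaction (63 genes) gave 38 with DESeq2, 7 with 2 Foxp3 UMIs, 125 without Areg, 233 with no filter on low counts and 21 to 97 with 1 library left out. In the other Foxp3+ cells (596 higher, 292 lower), thinning gave 397 higher, the gate without Areg 1074 and 644, no filter 974 and 628, DESeq2 165 lower, and leaving out 1 library 313 to 714 and 87 to 432. Beyond genes tested and libraries left out, the cause was not tested. Single values that turned, in log2, were for the tissue difference Foxp1 (0.031 without Areg), Gzmb (0.46 thinned, 0.60 without cells with a defining gene of others, 1.06 without other-lineage cells, 0.40 without spleen replicate 1, 0.14 without vascular replicate 2 and 0.0043 without vascular replicate 3; leaving out 1 library gave -0.44 to 0.40), Hspb1 (-0.29 without other-lineage cells), Ikzf2 (0.22 thinned, 0.00025 without other-lineage cells), Itgae (-0.15 thinned, -0.38 without Areg) and Lag3 (-0.33 thinned); against the other cells Ccl5 (-0.18 thinned) and Hspb1 (-0.22 without other-lineage cells); and for the interaction Nsg2 (0.16 thinned, 0.21 without Areg). Spleen and vascular libraries share replicate numbers, but the labels do not say that equal numbers mark the same animals. The numbers were therefore not taken as pairs. Deviations of same-numbered libraries correlated at -0.0005, 0.0084 and 0.026 over 8924 genes, and those of differently numbered ones at -0.035 to 0.020. With 3 libraries a tissue these values cannot decide whether the numbers mark pairs. With a replicate block the tissue difference gave 852 higher and 342 lower in the gated and 537 and 223 in the other cells. The interaction has library as a block already. Spleen library 1, with 53 gated cells, limits the precision of the spleen means most.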
